A study of Mus musculus with 6 samples.

Results

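Mitochondrial carriers and protein import translocases of mouse muscle stem cells are described here. Members were taken by name: every probe for an RNA, controls left out, whose gene name in the array files began with Slc25a, Timm or Tomm followed by a digit. This gave 66 of 36373 genes on the array, measured by 85 probes, with 44 carriers (Slc25a) and 22 translocases (Timm and Tomm). The arrays compared muscle satellite cells, which are the resident stem cells that repair muscle fibres, from young and adult mice, and the question was which RNAs differed between these ages. All mice were male C57BL/6 with no stated genetic change or treatment. There were 3 Young samples, aged 3, 2 and 3 months in replicates 1, 2 and 3, and 3 Adult samples, each aged 6 months. Every sample was sorted by flow cytometry as positive for integrin α7 and CD34 and negative for CD31, CD45, CD11b and Sca1, and its RNA was amplified before labelling. Samples of a group are biological replicates per the labels, which do not give the number of mice behind a sample, so p-values measure the spread between these samples.

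Carriers are inner membrane proteins that exchange nucleotides, phosphate, amino acids, carboxylates, cofactors and iron between the cytosol and the mitochondrial matrix. Nearly all mitochondrial proteins are made in the cytosol and enter through the TOM complex of the outer membrane. From there the TIM23 complex takes proteins with a cleavable presequence to the matrix or inner membrane, while the small Tim chaperones of the intermembrane space carry hydrophobic proteins to the TIM22 complex, which inserts them into the inner membrane. The carriers are themselves the best known cargo of the small Tim and TIM22 route, so one class is imported by the other. Satellite cells at rest are small cells with few mitochondria, and their mitochondrial content grows when they activate and differentiate.

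Sequences are shown first where 1 gene had probes that gave different answers, or where a gene stood alone, because there the reading depends on which stretch of RNA was measured. Each line gives the first 30 of the 60 bases of a probe, 5′ to 3′ as on the array, with positions in mouse build mm9. The probes of Timm13, whose fall had the smallest p of all members, and of Timm8a2, the only member called higher, lie at chr10:80362839-80362898 and chr14:122437095-122437154.
Timm13: ctgtgcctcgggacaccgtgcttatggtct
Timm8a2: gtctattgccagcaagactgaaaatcctga
The brighter probe of Timm10 (chr2:84670299-84670358) and its dimmer probe (chr2:84670197-84670256) lie close together on the plus strand.
Timm10 brighter probe: ggacttgtcacgctggtttgtgactgtgta
Timm10 dimmer probe: aaagtgtccctaatggatgtcacatgtgaa
Those of Tomm40 lie at chr7:20286707-20286766 and chr7:20296115-20296174 on the minus strand.
Tomm40 brighter probe: cacccctccatagaaatcatgtttataagt
Tomm40 dimmer probe: agttcgtgaactggcaggtggatggcgagt
For Slc25a33 the brighter probe lies at chr4:149118713-149118772, and the dimmer one is placed at chr4:149123432-149126565, a span longer than the probe itself.
Slc25a33 brighter probe: agtgttcaaaactgaaacagtgaaggccat
Slc25a33 dimmer probe: accttaatgaatcctatttggatggttaaa
A pair of Tomm20 probes is placed at the same position, chr8:129458446-129458505, and differs at 3 of 60 bases, G13A, C17A and A57G, with the base of the RefSeq probe first and positions counted from the 5′ end. The capitals mark the differences within the stretch shown.
Tomm20 RefSeq probe: gtgtttgtgaaaGctgCgcattaaaacctt
Tomm20 brighter probe: gtgtttgtgaaaActgAgcattaaaacctt

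Values below are log2 levels, that is, log2 of the processed signal minus the 75th percentile of the same array, and log2 differences, adult minus young with SE, so that a negative difference means lower in adult. Each gene is represented by its brightest probe. A gene was tested when its probe was well above background on at least 3 of 6 arrays, and passed when its limma p-value, adjusted by Benjamini-Hochberg over all 32096 genes tested, was under 0.05. Of the members, 62 were tested, 40 carriers and all 22 translocases. The 4 carriers below that filter were Slc25a21 and Slc25a31 (0 young and 1 adult array well above background each), Slc25a2 (0 and 2) and Slc25a45 (none), and they have no difference here. On the arrays as a whole, 41544 to 45942 of 55681 probes were well above background in Young and 47569 to 49974 in Adult. The median difference of all genes tested was 0.31 with this scaling, -0.06 with quantile normalization and -0.23 with median scaling, and the calls split into 6444 higher and 2711 lower, 2877 and 2756, and 3456 and 8813 in turn. For this reason class medians are given below with that shift subtracted too.

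Of the 22 translocases, 13 fell, 8 did not pass and 1 (Timm8a2) was called higher but had met the filter only through the adult arrays, with a median log2 difference of -0.89 and a range from -1.40 to 3.40. Of the 40 carriers tested, 7 fell, 0 rose (also 0 at an unadjusted p under 0.05) and 33 did not pass, with a median log2 difference of -0.46 and a range from -1.56 to 1.26. Over all genes tested 8.45% fell and 20.1% rose, and over the 17729 protein-coding genes 12.1% fell and 15.2% rose, with a median of -0.02. In either direction 28.5% of all genes and 27.4% of protein-coding genes passed. Set beside these, 59.1% of translocases and 17.5% of carriers fell. Relative to the median of all genes, the median was -1.20 for translocases and -0.77 for carriers. The estimate was below 0 in 19 of 22 translocases and in 32 of 40 carriers, which counts genes that did not pass.

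Most translocases are bright on these arrays, and bright genes were lower in adult more often than dim ones. Among the genes with the highest mean levels (the top 25%, called the bright range here), 4634 were protein-coding, and of these 25% fell, 5.31% rose and 30.3% passed in either direction, with a median log2 difference of -0.44. The 13 translocases in that range had a median of -0.86 with 8 lower and 0 higher, and the 12 carriers there had a median of -0.60 with 4 lower and 0 higher. Below that range the 9 other translocases had a median of -0.92 with 5 lower and 1 higher. The 28 other carriers had a median of -0.43 with 3 lower and 0 higher. No share was taken for protein-coding genes below that range, so these counts have no matched background. Over all protein-coding genes, the bright range included, 12.1% fell. The share of carriers that fell, 33.3% in the bright range, thus lay close to the 25% of bright protein-coding genes, and that of translocases, 61.5%, lay further above it. No test of these shares was made, since the members were named with earlier results of these data known.

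**Figure D1:**
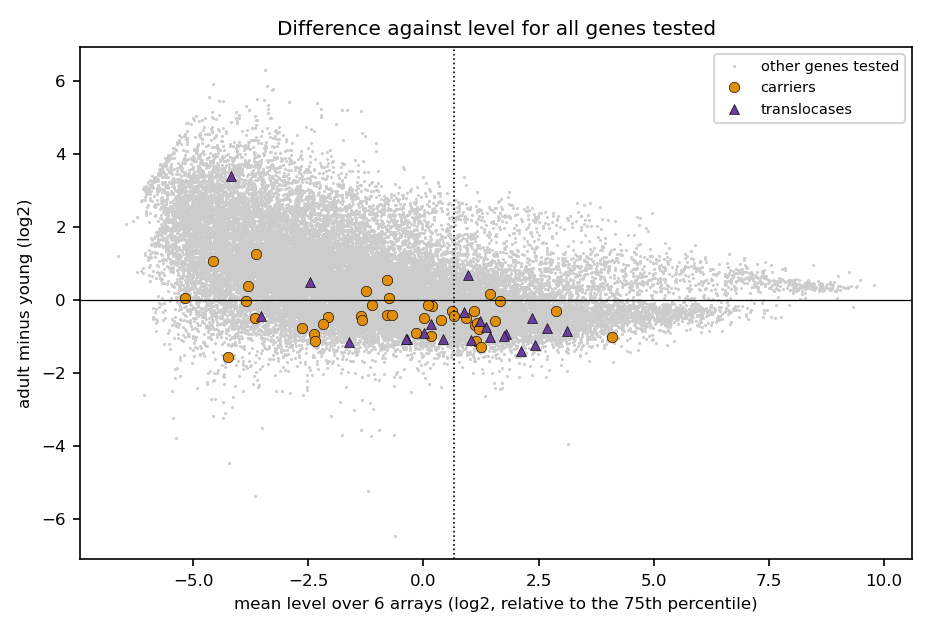
Log2 difference (adult minus young, y axis) against mean log2 level over the 6 arrays (x axis, relative to the 75th percentile of each array) for the 32096 genes tested, with carriers as orange circles and translocases as purple triangles. The dotted line at 0.67 marks the start of the bright range, in which 12 of the 13 translocases lie below 0.

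Array by array, each gene was set against its own mean in Young and the median was taken over each class. For translocases this median was -0.84, -0.65 and -1.04 log2 in Adult replicates 1, 2 and 3, and -0.04, -0.01 and 0.07 in Young replicates 1, 2 and 3. For carriers it was -0.36, -0.34 and -0.68 on the Adult arrays and -0.06, -0.01 and 0.06 on the Young arrays. The translocase median minus the carrier median was -0.48, -0.31 and -0.36 on these Adult arrays and 0.02, 0.00 and 0.01 on the Young arrays, which set the reference. Protein-coding genes of the bright range had medians of -0.35, -0.36 and -0.58 on the Adult arrays, near those of the carriers. Adult 3 held the lowest adult value in 23 of 40 carriers and 14 of 22 translocases. Young 1, Young 2 and Adult 1 lay in one row of the slide and the other 3 arrays in another. Within these rows the median difference was -0.80 and -0.91 for translocases and -0.33 and -0.57 for carriers.

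**Figure D2:**
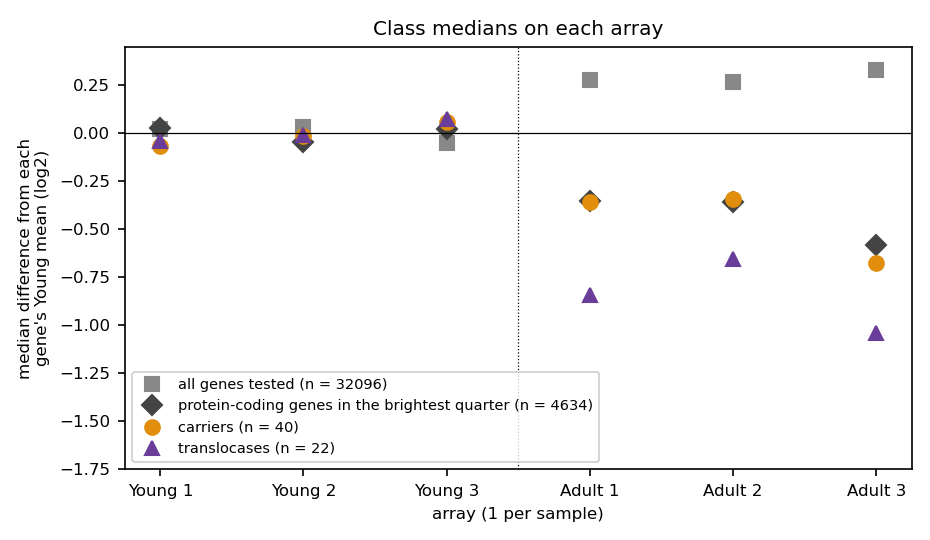
Median over each class of the log2 difference between a gene's value on an array and its mean over the Young arrays (y axis), for each of the 6 arrays (x axis). On the Adult arrays translocases lie between -1.04 and -0.65, carriers between -0.68 and -0.34 and all genes tested between 0.27 and 0.33.

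The groups did not overlap, adult below young, in 17 of 22 translocases and 15 of 40 carriers, against 21.6% of all genes, 28.3% of protein-coding genes and 54.1% of protein-coding genes in the bright range. Adult lay above young in 2 translocases, Timm8a2 and Tomm34, and 0 carriers, against 34%, 26.6% and 14.4% in those sets. Leaving out 1 array changed the counts of calls. Without Young 1, 2 or 3 the translocases that fell numbered 1, 6 and 1, and without Adult 1, 2 or 3 they numbered 0, 1 and 0. The carriers that fell numbered 0, 5 and 0 and then 0, 0 and 0. Calls over all genes shrank as well, from 9155 to between 297 (without Adult 3) and 7699 (without Young 2). Timm13 passed in 4 of these 6 fits, without Young 1, 2 or 3 or Adult 2. Slc25a4, Slc25a5, Slc25a16, Slc25a33, Slc25a39, Timm50, Tomm5, Tomm20, Tomm22 and Tomm40 passed only in the fit without Young 2, and the 9 other members that fell in none; Timm8a2 was called only without Young 1. The direction was kept in all 6 fits for each of the 20 members that fell, with limma adjusted p between 0.0187 and 0.114.

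**Figure D3:**
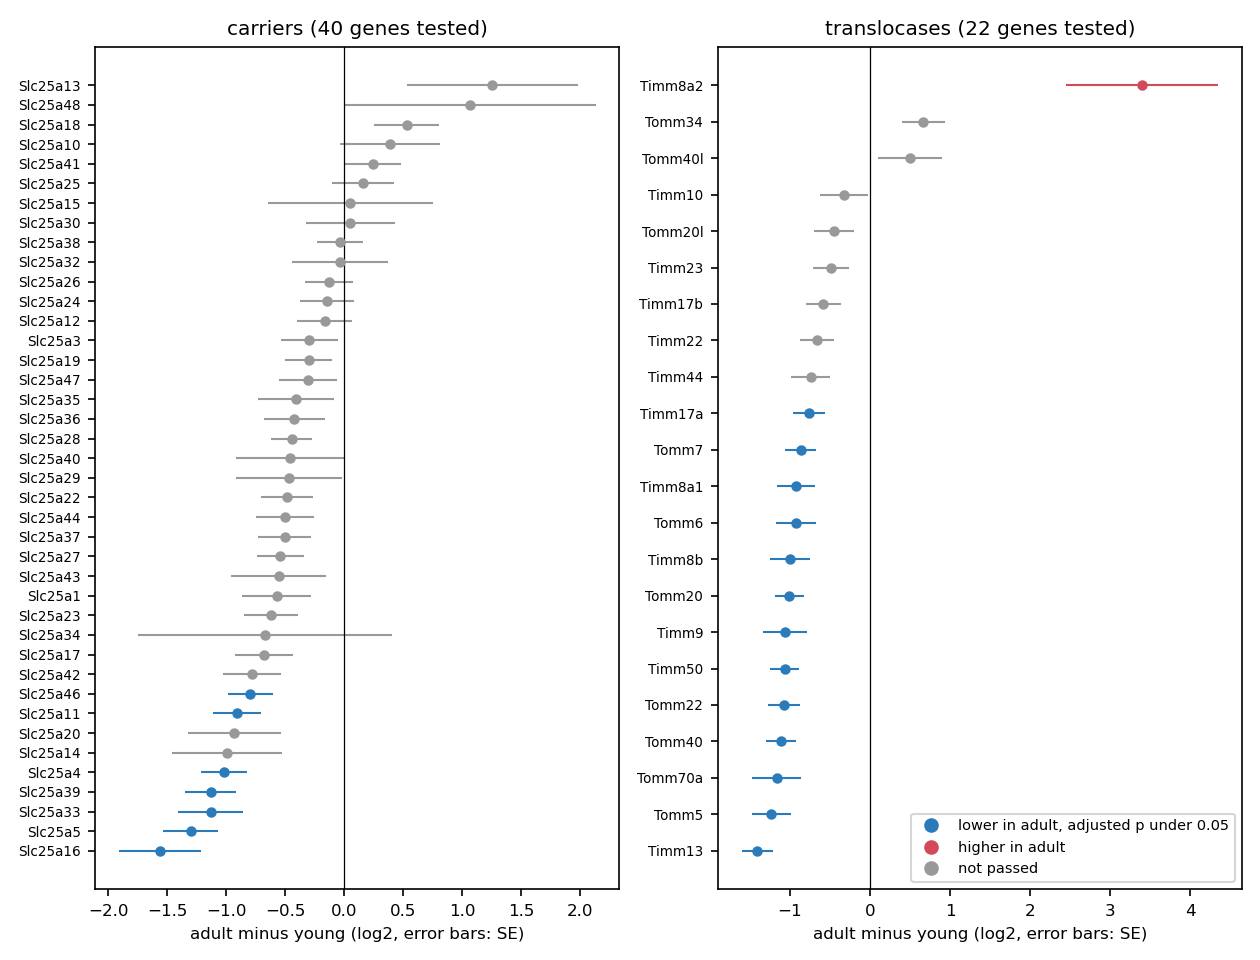
Log2 difference (adult minus young, x axis, bars show the SE) of each of the 40 carriers and 22 translocases tested, ordered by size, blue where lower in adult and red where higher at a limma adjusted p under 0.05. Carriers that fell lie between -1.56 and -0.79, and translocases that fell between -1.40 and -0.76.

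Counts by role group, here and below, stand beside the 12.1% of protein-coding genes that fell and the 25% of those in the bright range. Groups did not overlap, adult below young, in 28.3% and 54.1% of these sets. The TOM complex is the entry gate of the outer membrane, and of the 10 genes named for it, all tested, 7 fell, 0 rose and 3 did not pass, with a median log2 difference of -0.96 over all 10. The 3 are Tomm34, Tomm40l and Tomm20l, which are not core subunits. Tomm40 forms the channel, and its log2 levels were 1.56, 1.44 and 1.75 in Young replicates 1, 2 and 3 and 0.46, 0.61 and 0.35 in Adult replicates 1, 2 and 3, the order kept below. It fell by 1.11 ± 0.18 log2, or 2.16-fold (limma adjusted p = 0.0216), and the groups did not overlap. Its second probe, printed above, gave 0.32, 0.69 and 0.79 in Young and 0.64, 0.56 and 0.36 in Adult, so the groups overlapped and the log2 difference was -0.08 ± 0.21. With the mean of both probes the call was lost (-0.59, adjusted p = 0.0556).

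Tomm22, the central receptor that holds the TOM complex together, had log2 levels of 0.13, 0.14 and 0.28 in Young and -0.67, -0.84 and -1.15 in Adult. It fell by 1.07 ± 0.20 log2, or 2.10-fold (limma adjusted p = 0.0246), with every adult array below every young one. Tomm20, the receptor for presequences, had log2 levels of 1.88, 1.97 and 2.00 in Young and 1.12, 0.91 and 0.81 in Adult, again without overlap. It fell by 1.004 ± 0.177 log2, or 2.01-fold (limma adjusted p = 0.0228). The RefSeq probe at the same position, with 3 differing bases, gave a log2 difference of -0.85 ± 0.20 (adjusted p over probes = 0.035), and the remaining Tomm20 probe one of -0.62 ± 0.22 (0.0782), so the 3 probes shared the direction. Tomm70a, the receptor that docks chaperone-bound carrier precursors, had log2 levels of -1.20, -1.08 and -0.84 in Young and -2.59, -1.59 and -2.43 in Adult. It fell by 1.16 ± 0.31 log2, or 2.24-fold (limma adjusted p = 0.0409), with Adult 2 nearest to the young arrays.

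The small subunits that stabilise the channel also fell. Tomm5 had log2 levels of 2.85, 3.21 and 3.09 in Young and 1.69, 2.22 and 1.54 in Adult. It fell by 1.23 ± 0.25 log2, or 2.35-fold (limma adjusted p = 0.0263), with no overlap, and its second probe gave -1.16 ± 0.21. Tomm6 had log2 levels of 2.24, 2.41 and 2.14 in Young and 1.05, 1.78 and 1.18 in Adult and fell by 0.92 ± 0.25 log2 (limma adjusted p = 0.0421). Tomm7 had log2 levels of 3.40, 3.61 and 3.66 in Young and 2.71, 2.90 and 2.47 in Adult and fell by 0.86 ± 0.20 log2 (limma adjusted p = 0.0316). Neither overlapped between groups, and for both Tomm5 and Tomm6 the highest adult array was Adult 2. Tomm7 lost its call with quantile normalization, cyclic loess and the array row as a block (adjusted p 0.0614, 0.0662 and 0.0534), Tomm70a with array weights and with a percentile over probes detected on every array (0.0737 and 0.0503), and Tomm6 with 7 alternatives (0.0578 to 0.105). These and later counts of alternatives leave out the replicate block, under which 0 of 32096 genes passed by limma (12739 at an unadjusted p under 0.05).

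Tomm34, a cytosolic co-chaperone of Hsp70 and Hsp90, had log2 levels of 0.67, 0.61 and 0.60 in Young and 1.80, 1.18 and 0.91 in Adult. All adult values lay above all young ones, but the log2 difference of 0.67 ± 0.27 did not pass (limma adjusted p = 0.0987). Tomm40l, the paralogue of the channel gene, had log2 levels of -2.77, -2.11 and -3.23 in Young and -1.66, -2.23 and -2.73 in Adult, with overlap. Its log2 difference of 0.50 ± 0.40 (adjusted p = 0.342) turned negative with quantile normalization, median scaling, cyclic loess, normexp and the series matrix values. Tomm20l, the paralogue of the presequence receptor, had log2 levels of -3.55, -3.46 and -2.93 in Young and -3.79, -3.97 and -3.50 in Adult, and a log2 difference of -0.44 ± 0.25 that did not pass (adjusted p = 0.198). That probe has no genome position in the files, and the other Tomm20l probe (chr12:72222856-72222915) went the other way, at 1.57 ± 0.37. The Tomm40 and Tomm20 paralogue pairs were thus not alike in these estimates, though no difference between paralogues was tested.

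**Figure D4:**
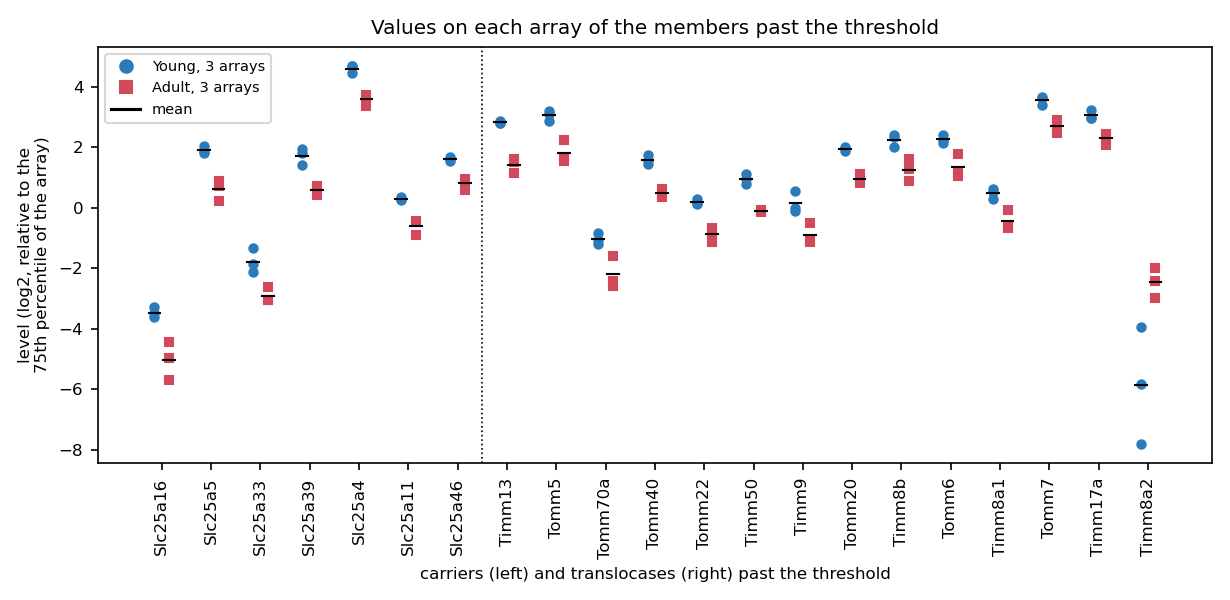
Log2 level (y axis, relative to the 75th percentile of the array) on each of 3 Young (blue circles) and 3 Adult (red squares) arrays for the 7 carriers and 14 translocases past the threshold (x axis), with group means as black lines. In each gene the groups do not overlap, and Timm8a2 is the only one with adult above young.

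The TIM23 complex moves presequence proteins into the matrix or inner membrane, and its 5 tested members all had negative estimates, with a median log2 difference of -0.74. Of these, 2 fell and 3 did not pass, and in all 5 every adult array lay below every young one. This was so in 28.3% of protein-coding genes and in 54.1% of those in the bright range. Timm50, the receptor that takes precursors from the TOM complex, had log2 levels of 0.80, 0.95 and 1.11 in Young and -0.10, -0.09 and -0.15 in Adult. It fell by 1.06 ± 0.18 log2, or 2.09-fold (limma adjusted p = 0.0215), and its second probe gave -0.85 ± 0.22. Timm17a, a core channel protein, had log2 levels of 2.98, 2.96 and 3.24 in Young and 2.44, 2.40 and 2.06 in Adult. It fell by 0.76 ± 0.20 log2, or 1.69-fold (limma adjusted p = 0.0403), and lost this call with 6 alternatives (adjusted p 0.0539 to 0.103). The second Timm17a probe gave -0.57 ± 0.18 and did not pass (limma adjusted p over probes = 0.0629).

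Its paralogue Timm17b had log2 levels of 1.54, 1.62 and 1.41 in Young and 0.83, 1.29 and 0.71 in Adult, and the log2 difference of -0.58 ± 0.22 did not pass (limma adjusted p = 0.0868), while its second probe gave -0.98 ± 0.25 (adjusted p over probes = 0.0409). Timm23, the partner of Timm17 in the channel, had log2 levels of 2.34, 2.51 and 2.98 in Young and 2.15, 2.05 and 2.17 in Adult. The adult values were within a narrow band, the young ones spread, and the log2 difference of -0.49 ± 0.22 did not pass (limma adjusted p = 0.132). Timm44, which tethers the import motor to the channel on the matrix side, had log2 levels of 1.69, 1.92 and 1.56 in Young and 1.04, 1.31 and 0.60 in Adult, with a log2 difference of -0.74 ± 0.25 (limma adjusted p = 0.0655). Timm44 and Timm17b each passed with 3 alternatives, among them trend and robust moderation (adjusted p 0.0287 and 0.044).

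Timm22, the channel that inserts carriers into the inner membrane, was the only member of its complex under this rule. Its log2 levels were 0.66, 0.28 and 0.56 in Young and 0.10, -0.37 and -0.21 in Adult. The groups did not overlap, and the log2 difference of -0.66 ± 0.22 did not pass (limma adjusted p = 0.0624). It did pass with 6 alternatives, among them trend and robust moderation (0.0369).

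The small Tim chaperones escort carriers and other hydrophobic proteins across the intermembrane space, and of 6 tested 4 fell, 1 did not pass and 1 (Timm8a2) was called higher, with a median log2 difference of -0.95. Timm13, which works as a ring with Timm8 proteins, had log2 levels of 2.80, 2.86 and 2.80 in Young and 1.51, 1.60 and 1.14 in Adult. It fell by 1.40 ± 0.20 log2, or 2.65-fold (limma adjusted p = 0.0174), and the gap between the groups was wide against the spread within each. Timm9, which forms a ring with Timm10, had log2 levels of 0.56, 0.00 and -0.10 in Young and -1.08, -1.12 and -0.52 in Adult. It fell by 1.06 ± 0.28 log2, or 2.09-fold (limma adjusted p = 0.0398), without overlap.

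Timm8b had log2 levels of 2.00, 2.34 and 2.39 in Young and 0.89, 1.59 and 1.27 in Adult and fell by 0.99 ± 0.25 log2 (limma adjusted p = 0.0364). Timm8a1, whose human counterpart is mutated in a deafness-dystonia syndrome, had log2 levels of 0.52, 0.28 and 0.63 in Young and -0.58, -0.07 and -0.68 in Adult and fell by 0.92 ± 0.24 log2 (limma adjusted p = 0.0381), with a second probe at -0.80 ± 0.24. These partners of Timm13 therefore moved in its direction, and neither overlapped between groups. Calls were lost with quantile normalization and cyclic loess for Timm8b (adjusted p 0.0744 and 0.0881), with 4 alternatives for Timm8a1 (0.0508 to 0.055) and with 3 for Timm9 (0.0543 to 0.0739).

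Timm8a2, a second mouse Timm8a gene, was the only member called higher. Its log2 levels were -3.96, -5.84 and -7.82 in Young and -2.01, -3.00 and -2.42 in Adult, and its signal stood well above background in 1 of 3 Young and in all 3 Adult samples. It met the filter only through the group in which it is high, so its call was favoured in advance and is given as a description, with no p. The log2 difference was 3.40 ± 0.95, with 2 of the young values not well above background. It was 0.92 with the series matrix values, and was called neither there nor with quantile normalization, cyclic loess, normexp or no filter.

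Timm10 depended on the probe. The brighter probe had log2 levels of 1.17, 0.84 and 1.13 in Young and 1.14, 0.89 and 0.16 in Adult, so Adult 1 and 2 lay among the young arrays, and the log2 difference of -0.32 ± 0.30 did not pass (limma adjusted p = 0.415). The dimmer probe, which lies close by on the same strand, had log2 levels of 0.32, 0.37 and 0.45 in Young and -1.14, -0.83 and -1.14 in Adult. Here the groups were far apart, with a log2 difference of -1.41 ± 0.19 (limma adjusted p over probes = 0.0182). With the mean of both, Timm10 passed (-0.87, adjusted p = 0.0341).

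**Figure D5:**
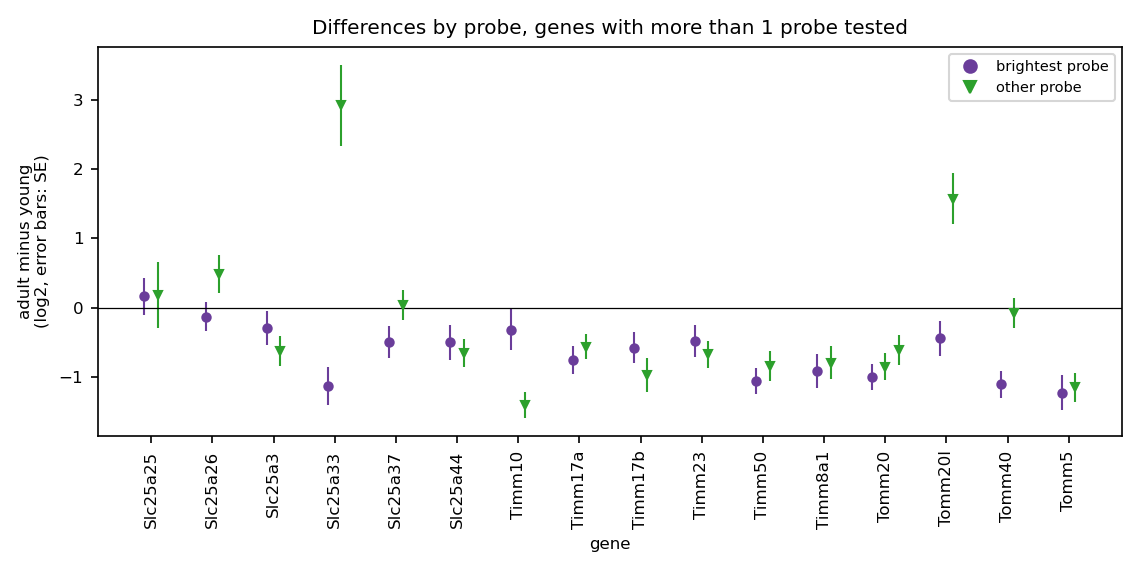
Log2 difference (adult minus young, y axis, bars show the SE) by probe for the 16 member genes with more than 1 probe tested, with the brightest probe in purple and other probes in green. Probes of Slc25a33, Timm10, Tomm20l and Tomm40 lie furthest apart, and those of Timm50, Tomm5 and Tomm20 lie together.

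Among carriers, the 10 tested for nucleotides and phosphate held 3 that fell and 0 that rose, with a median log2 difference of -0.52. Slc25a4, the ADP/ATP exchanger of heart and muscle, had log2 levels of 4.44, 4.69 and 4.67 in Young and 3.68, 3.71 and 3.35 in Adult. It fell by 1.02 ± 0.20 log2, or 2.02-fold (limma adjusted p = 0.0253), with no overlap. Its probe is spotted 10 times on each array, and the SD between these spots was 0.018 to 0.085 log2, below the spread between arrays of a group. Slc25a5, the ADP/ATP exchanger of dividing and many other cells, had log2 levels of 2.05, 1.86 and 1.80 in Young and 0.88, 0.72 and 0.22 in Adult. It fell by 1.30 ± 0.23 log2, or 2.46-fold (limma adjusted p = 0.0235). Both exchangers fell, with estimates whose SE ranges overlap, and their difference was not tested.

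Slc25a3, which brings in the phosphate for ATP synthesis, had log2 levels of 2.99, 3.12 and 2.94 in Young and 3.09, 2.75 and 2.34 in Adult. The groups overlapped, and the log2 difference of -0.29 ± 0.24 did not pass (limma adjusted p = 0.359), with a second probe at -0.63 ± 0.22 (adjusted p over probes = 0.0769). Slc25a33, a pyrimidine nucleotide carrier, had log2 levels of -1.35, -2.15 and -1.86 in Young and -3.07, -3.05 and -2.63 in Adult by its brighter probe. It fell by 1.13 ± 0.27 log2, or 2.19-fold (limma adjusted p = 0.0341), but its dimmer probe went the other way. That probe was not well above background on any young array and was on all 3 adult arrays. It met the filter through the adult arrays alone, so no test of it is given. The mean of both probes was positive (0.90, adjusted p = 0.129), so the estimates for Slc25a33 differ in sign between probes. For the dimmer probe the adult mean was 4.99-fold the young mean with a floor set under the young signals. The floor was the lowest signal counted as well above background on the array, used where the probe's own signal was smaller. Being the lowest such signal, it gives no strict lower bound, so the size is uncertain. Slc25a36, the paralogue of Slc25a33, had log2 levels of -0.15, -0.78 and -0.46 in Young and -0.57, -0.89 and -1.19 in Adult. The log2 difference of -0.42 ± 0.26 did not pass (adjusted p = 0.238).

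Among the 5 carriers tested for cofactors and vitamins, 1 fell, 0 rose and the median log2 difference was -0.30. That 1 was Slc25a16, related to the yeast carrier needed for mitochondrial coenzyme A, with log2 levels of -3.63, -3.49 and -3.29 in Young and -5.70, -4.96 and -4.43 in Adult. It fell by 1.56 ± 0.35 log2 (limma adjusted p = 0.0305), the lowest estimate among carriers, but it was well above background on only 2 of 3 adult arrays, so the size is uncertain. Of the 5 carriers tested for di- and tricarboxylates, 1 fell, with a median of -0.57. Slc25a11, the oxoglutarate/malate exchanger of the malate-aspartate shuttle, had log2 levels of 0.24, 0.36 and 0.28 in Young and -0.43, -0.49 and -0.91 in Adult. It fell by 0.90 ± 0.20 log2, or 1.87-fold (limma adjusted p = 0.0307), without overlap, and the call was lost with the array row as a block (0.0561).

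The 13 tested carriers for amino acids, glutathione and carnitine held 1 that fell and 12 that did not pass, with a median log2 difference of -0.31. That share of 7.69% lay below the 12.1% of protein-coding genes. Slc25a39, needed for glutathione import into mitochondria, had log2 levels of 1.94, 1.40 and 1.79 in Young and 0.42, 0.61 and 0.71 in Adult. It fell by 1.13 ± 0.22 log2, or 2.19-fold (limma adjusted p = 0.0251). Its paralogue Slc25a40 had log2 levels of -0.99, -1.20 and -1.20 in Young and -0.54, -1.95 and -2.27 in Adult, where Adult 1 was the highest of all 6 arrays. Its log2 difference of -0.45 ± 0.46 did not pass (adjusted p = 0.452).

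Slc25a20, the carnitine/acylcarnitine carrier of fatty acid oxidation, had log2 levels of -2.54, -1.81 and -1.38 in Young and -2.62, -2.49 and -3.41 in Adult. Adult 2 lay above Young 1, and the log2 difference of -0.93 ± 0.39 did not pass (limma adjusted p = 0.112). It did pass with normexp and with the series matrix values (0.0217), and with median scaling (0.0369). The aspartate/glutamate exchangers, the other arm of the malate-aspartate shuttle, did not pass either. Slc25a12, the form of muscle and brain, had log2 levels of 0.52, 0.27 and 0.03 in Young and -0.12, 0.42 and 0.03 in Adult, and a log2 difference of -0.16 ± 0.23 (adjusted p = 0.591). Slc25a13, the form of liver, had log2 levels of -5.82, -3.57 and -3.43 in Young and -2.62, -3.83 and -2.59 in Adult, and a log2 difference of 1.26 ± 0.73 (adjusted p = 0.210), with 2 of 3 young arrays well above background.

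The mitoferrins bring iron to the matrix for haem and iron-sulphur clusters, and neither passed although their groups did not overlap. Slc25a37, mitoferrin of red cell precursors, had log2 levels of 1.27, 1.17 and 1.12 in Young and 0.69, 1.02 and 0.35 in Adult, and a log2 difference of -0.50 ± 0.23 (limma adjusted p = 0.126), while its second probe gave 0.04 ± 0.21. Slc25a28, the mitoferrin of other tissues, had log2 levels of 0.77, 0.94 and 0.95 in Young and 0.48, 0.54 and 0.30 in Adult, and a log2 difference of -0.44 ± 0.17 (adjusted p = 0.0948). Red cell genes varied more between arrays than these. The summed linear level of the 4 erythroid markers tested was 1.45 to 68.2 times the 75th percentile in Young and 44.5 to 72.6 in Adult, 0 of them passed, and their part in the Slc25a37 values was not tested.

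The 3 carriers related to uncoupling proteins did not pass. Slc25a14 had log2 levels of 0.41, 0.48 and 1.10 in Young and 0.57, -0.45 and -1.11 in Adult, so Adult 1 lay among the young arrays, and its log2 difference was -0.99 ± 0.46 (limma adjusted p = 0.137). Slc25a27 had log2 levels of 0.52, 0.53 and 0.94 in Young and 0.06, 0.09 and 0.22 in Adult, without overlap, and a log2 difference of -0.54 ± 0.20 (adjusted p = 0.082). Slc25a30 had log2 levels of -0.52, -0.52 and -1.31 in Young and -1.22, -0.86 and -0.10 in Adult and a log2 difference of 0.05 ± 0.38 (adjusted p = 0.920), whose sign turned with 4 of the scalings and backgrounds tried. Among the 2 outer membrane or orphan members, Slc25a46, an outer membrane protein of mitochondrial fission and cristae, had log2 levels of 1.53, 1.61 and 1.68 in Young and 0.92, 0.94 and 0.57 in Adult. It fell by 0.79 ± 0.19 log2, or 1.73-fold (limma adjusted p = 0.0337), and lost the call with quantile normalization, cyclic loess and the array row as a block (0.0624, 0.0726 and 0.0619).

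Import and transport genes outside the naming rule were taken from a separate list of 34 partners, all tested. Of these, 12 fell (35.3%), 21 did not pass and 1 (Ucp1) was called higher, with a median log2 difference of -0.82. Over all genes tested 8.45% fell and 20.1% rose. Among protein-coding genes of the bright range 25% fell and 5.31% rose, with a median of -0.44. Mpc1 and Mpc2 form the pyruvate carrier, which is not a member of the Slc25 family. Mpc2 had log2 levels of 0.83, 1.11 and 1.17 in Young and -0.05, -0.19 and -0.20 in Adult and fell by 1.18 ± 0.18 (limma adjusted p = 0.0199). Mpc1 had log2 levels of 1.11, 0.75 and 0.94 in Young and 0.02, 0.02 and -0.37 in Adult and fell by 1.04 ± 0.21 (adjusted p = 0.0264). Both subunits were lower on every adult array than on any young one. In the import machinery, Mtx2, a metaxin of the outer membrane assembly machinery, fell by 1.54 ± 0.29 (limma adjusted p = 0.0246), Romo1, a small partner of the inner membrane translocases, by 1.16 ± 0.23 (0.0256) and Oxa1l, the insertase of the inner membrane, by 0.80 ± 0.16 (0.0272).

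Ucp3, the uncoupling protein of skeletal muscle, fell by 1.51 ± 0.31 log2 (limma adjusted p = 0.0273), Vdac2, a pore for metabolites in the outer membrane, by 1.02 ± 0.23 (0.0304) and Mtch2, an insertase of the outer membrane, by 1.01 ± 0.23 (0.0305). Samm50, Grpel1, Mtch1 and Vdac1 were the other partners that fell. With 1 array left out, the 8 partners given with values passed in 0 (Vdac2) to 3 (Mpc2) of 6 fits, with adjusted p from 0.026 to 0.0787. Beside the replicate block, Oxa1l lost its call with quantile normalization and cyclic loess (0.0549 and 0.0639), Vdac2 with these and the array row as a block (0.0507, 0.0536 and 0.0548) and Mtch2 with that block and with the mean of its probes (0.0557 and 0.256). Ucp1, the uncoupling protein of brown fat, was the 1 partner called higher, with a log2 difference of 2.84 ± 0.68, and it is named because it stood alone. Its signal stood well above background in 1 of 3 Young samples, so it met the filter only through Adult, where it is high, and no p is given. It was called neither with quantile normalization, cyclic loess, normexp nor the series matrix values. Beside Ucp1, 2 of 4 adipocyte markers were called higher, against 20.1% of all genes tested. Their summed linear level was 6.81 to 10.6 times the 75th percentile in Young and 3.38 to 16.6 in Adult, and their part in the Ucp1 value was not tested.

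Of the genes whose current names fit the rule but whose names in the files do not, 6 were found and kept apart from the members. Timm10b is also among the partners above. Timm21, a regulatory subunit of TIM23, had log2 levels of 1.23, 1.13 and 1.20 in Young and 0.46, 0.47 and 0.57 in Adult and fell by 0.69 ± 0.16 (limma adjusted p = 0.0331). Timm10b (-0.34 ± 0.17, adjusted p = 0.166), Timm29 (-0.70 ± 0.64, adjusted p = 0.400) and Slc25a51 (-0.44 ± 0.31, adjusted p = 0.294) did not pass, and Slc25a53 was below the filter. Slc25a54 had a log2 difference of 2.47 ± 0.49, with no p given because it met the filter only through Adult (1 of 3 Young samples well above background), and a log2 difference of 0.25 with the series matrix values. Timm21 passed in 0 of the 6 fits with 1 array left out and lost its call with quantile normalization, cyclic loess and the array row as a block (0.0608, 0.0922 and 0.0571).

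Markers of the sorted cells and of cells the sort was meant to remove were read beside these results. Over all genes tested 8.45% fell and 20.1% rose, with a median log2 difference of 0.31. Of protein-coding genes in the bright range 25% fell and 5.31% rose. All 8 satellite cell markers were measured, and 4 were lower in adult (Itga7, Cdh15, Vcam1 and Calcr), while Pax7 (-0.34, adjusted p = 0.304) and Cd34 (-0.18, adjusted p = 0.522) did not pass. The summed linear level of this list, in multiples of the 75th percentile of the array, was 52.1 to 63.3 in Young and 32.0 to 51.0 in Adult. Of 12 myofibre markers 4 were lower and 1 higher, 7 estimates were positive and 5 negative, and the median log2 difference was 0.06. Among those called lower, Myh1 was well above background on 3 young arrays and 1 adult array. It met the filter only through Young, where it is high, so its call was favoured in advance. Their summed level was 36.8 to 53.1 in Young and 19.99 to 26.1 in Adult. Most of that sum was Atp2a1, with mean log2 levels of 4.96 in Young and 3.86 in Adult. Myofibres are rich in mitochondria and in Slc25a4 and Ucp3, and the part of myofibre RNA in the lower values of carriers and translocases was not tested. Of 8 leukocyte markers 2 were called higher (25%, near the 20.1% of all genes), Adgre1 and Tyrobp, and all 8 estimates were positive (median 0.60). Tyrobp, well above background on 0 young and 3 adult arrays, met the filter only through Adult. The summed level (219 to 425 in Young, 378 to 402 in Adult) was mostly the 1 Itgam probe used, at mean log2 levels of 8.18 and 8.57. The next brightest marker, Csf1r, had means of 3.01 and 3.37, and Ptprc had means of -2.70 and -2.21. The sum thus does not describe the other leukocyte markers. Of 6 endothelial markers 1 was higher (16.7%, also near that share), with summed levels of 17.4 to 26.7 in Young and 16.8 to 23.1 in Adult. Of 5 mural markers 3 were higher and 1, Acta2, lower, with a median of 1.87. Their summed level (13.8 to 17.3 and 10.6 to 14.8) was in Young mostly Acta2, at mean log2 levels of 3.70 and 1.60. Of 4 fibro-adipogenic markers 0 passed by limma, with 1 at an unadjusted p under 0.05 (9.92 to 18.4 and 3.99 to 9.43). Pdgfra was below the filter. In RNA from a sorted population, fewer cells of a type and less RNA per cell cannot be told apart.

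RefSeq promoter windows of 300 bases on GRCm38.p6, 250 before and 50 after a start, were found for 20 of 22 translocases (22 windows) and 34 of 44 carriers (43 windows), and 5 sets of letters were searched on both strands. The ETS letters CCGGAAGT, read by GABP among others, were in 18.2% of translocase windows (4 of 22) and 2.33% of carrier windows (1 of 43), against 3.89% of all windows and 5.15% of protein-coding ones. The E-box letters CACGTG were in 22.7% of translocase and 18.6% of carrier windows, against 7.15% of all windows. The palindromic NRF1 consensus of 10 letters was in none of either class and in 0.971% of all windows. The ERR letters TCAAGGTCA were in 1 translocase window, that of Timm8b, and the YY1 letters AAGATGGCG in 1 window of each class, Timm50 and Slc25a3. None of these sets of letters contains another.

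The ETS matches of translocases and the 1 ERR match are shown to let the letters be seen in place, 30 bases each on the strand of the gene, with the match in capitals; where the capitals read ACTTCCGG the match is on the other strand. They lie at chr16:57121623-57121652 (Tomm70a), chr2:84827026-84827055 (Timm10), chr14:32201921-32201950 (Timm23), chr14:122034608-122034637 and chr14:122034652-122034681 (Timm8a2) and chr9:50603795-50603824 (Timm8b), on GRCm38.p6.
Tomm70a ETS: gccttctgaccCCGGAAGTggttctcccct
Timm10 ETS: tagacttccttCCGGAAGTgacccacgtgc
Timm23 ETS: tcgcgcttcccACTTCCGGgccgcacacag
Timm8a2 ETS, first: gcagccatgacACTTCCGGttctcgttctc
Timm8a2 ETS, second: gtgggtggggcACTTCCGGtccctggctcg
Timm8b ERR: tttcgagggcTCAAGGTCActctacaaccc
Of the 4 translocases with the ETS letters, Tomm70a fell, Timm8a2 was called higher and Timm10 and Timm23 did not pass by their brightest probe, so these letters did not go with 1 direction. In Timm10 the E-box letters follow the ETS letters a few bases further on. A match is a description of letters in this window and not a bound site.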

How the data were processed

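RNA from 6 sorted satellite cell samples was hybridised to single-colour Agilent arrays. The deposited intensity values are the processed, mean and background signals of each spot and, per the file headers, come from Agilent Feature Extraction (version 10.7.3.1). The deposited log2 values of the series matrix differed by at most 0.000106 from normexp (offset 50) and quantile normalization of those signals. All arrays lay on 1 slide scanned once.

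Control and outlier spots were left out, spots of a probe averaged, and log2 processed signals centred per array on the 75th percentile. A probe needed 3 or more arrays well above background, and the brightest probe stood for its gene. The comparison of Adult with Young used lmFit and eBayes of limma (version 3.58.1, R 4.3.3), with data.table (version 1.17.8) for reading, and the fit was tested on simulated data. Members, role groups and lists were chosen with earlier results of these data known. Values on every array are given for called members and those of each other role group with the smallest p (up to 3), for set members of the import route, and for paralogue pairs, 40 in all, and for up to 8 partners. Protein sequences were not used here. Precision is limited by the number of arrays.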

Additional observations from a re-analysis of the deposited data

How the results depend on the processing

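Alternatives covered scaling, background correction, the dim probe filter, the choice of probe, the variance model, blocks by replicate number and array row, and fits with 1 array fewer. A block by slide could not be fitted, with 1 slide. Both class medians stayed below 0 in all of them, and relative to all genes they ranged from -0.84 to -0.44 for carriers and from -1.29 to -0.68 for translocases. The carriers that fell (7) numbered 20 with median scaling, 4 with the array row as a block, 0 with the replicate number as a block and 0 to 5 with 1 array left out, and 1 carrier was called higher without a filter. Their median (-0.46) was -0.9995 with median scaling, -0.32 with the percentile over probes above background on all arrays and -0.51 to -0.32 with 1 array left out. The translocases that fell (13) numbered 8 with cyclic loess, 8 with the array row as a block, 0 with the replicate block and 0 to 6 with 1 array left out. The 1 called higher became 0 with quantile normalization, cyclic loess, no filter, the filter on all 6 arrays and the replicate block, and 0 to 1 with 1 array left out. Their median (-0.89) was -1.43 with median scaling, -0.68 with cyclic loess, -0.69 with normexp or the series matrix values and -0.96 to -0.78 with 1 array left out. Signs turned for Slc25a30 (-0.13 quantile, -0.49 median scaling, -0.12 normexp and series matrix, -0.052 array weights, and, with 1 array left out, -0.26 to 0.30, with -0.21 without Young 3 and -0.26 without Adult 3), for Tomm40l (-0.20 quantile, -0.040 median scaling, -0.033 cyclic loess, -0.11 normexp and series matrix) and, with the mean of probes, for Slc25a33 (0.90) and Tomm20l (0.56). Same-numbered samples correlated at -0.00242, -0.0934 and -0.142 in their deviations from group means. These values show no pairing by number but, with 3 arrays per group, cannot exclude one. With the replicate block 0 of 32096 genes passed by limma (12739 at an unadjusted p under 0.05, with 15 translocases and 8 carriers lower). Where calls changed, the cause was not tested, beyond the fewer arrays left in some fits. Dim members (Timm8a2, Slc25a16, Slc25a13) have uncertain sizes.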
